A study of Mus musculus with 3 samples.

Results

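Timp1, Lum, Penk, Nrn1, Crispld2, Pglyrp1 and Pros1 encode secreted or cell-surface proteins, and were followed across mouse CD4 T cells grown as Th0, Th22 and Th17 cultures. These 7 genes, of 19938 with a probe of their own, were picked because their values differed widely between the arrays, so the differences given for them are descriptions and no test was made on them. All samples held splenic CD4+ T cells of the OT-II strain, B6.Cg-Tg(TcraTcrb)425Cbn/J, whose transgenic receptor recognises an ovalbumin peptide. The cells were sorted as naive (CD4+CD25-CD62LhighCD44low) and activated with that peptide on splenic antigen-presenting cells that had been depleted of T cells and came from Il23a-/- mice, in every culture. Th0 cells received no cytokine, Th22 cells IL-6, and Th17 cells IL-6 with TGFβ, and RNA was taken 60 hours later from cells purified by MACS. Each culture was measured on 1 single-colour array, so no difference can be set against replicates, and precision is limited by having so few arrays.

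The proteins come from systems better known outside T cells. Timp1 is a tissue inhibitor of metalloproteases, the enzymes that cut extracellular matrix, and is a known target of IL-6-type cytokines in several tissues. Lumican, from Lum, is a small leucine-rich proteoglycan that binds collagen fibrils. Penk encodes the precursor that proprotein convertases cut into enkephalins, which act on opioid receptors. Nrn1 encodes neuritin, which promotes neurite growth, is held at the cell surface by a lipid anchor and can be shed, so "secreted" describes it only in part. It has been described in anergic and regulatory T cells. Crispld2 encodes a secreted protein of the CAP superfamily, and Pglyrp1 a peptidoglycan recognition protein stored in neutrophil granules. Pros1 encodes protein S, an anticoagulant cofactor that also activates Tyro3 and Mertk of the TAM receptors (Tyro3, Axl and Mertk). The arrays measured RNA only, so nothing here shows that a protein was made or released.

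The deposited values are on what was taken to be a log2 scale, relative to the probe's median of the 3 arrays, so 0 marks the array of the middle value. Every fold rests on that base, which the labels do not state, and would be larger with natural logs. This centring removed expression levels, and whether the lowest array of a gene was above background is not known. Of the 19938 genes, 7507 (37.7%) were exactly equal on all 3 arrays, and equality of this kind may hide an undetected gene. For the same reason the T cell label could not be checked by level. The 10 measured T cell markers, among them Cd3e and Cd4, all lay within 2-fold in each comparison, between -0.59 and 0.42 log2. Of 5 markers of CD8 and NK cells 1 passed 2-fold, Cd8b1 (2.61-fold lower in Th17 than Th0, or -0.97 log2 after quantile normalization of the arrays). Eomes was -0.79 log2 in Th22 and in Th17 relative to Th0, and passed 2-fold after that normalization (-1.08 log2 in both). That normalization acted on values already centred on each probe's median, not on expression levels. Over all genes it raised those at least 2-fold lower in Th22 than in Th0 from 52 to 158. A gene that passes 2-fold only after it is therefore read with caution. None of 10 macrophage and dendritic cell, 6 B cell and 7 endothelial markers passed 2-fold, which 3.7% of all genes passed in at least 1 comparison. In bulk RNA, fewer cells of a type and less RNA per cell cannot be told apart. Repeat measurements exist only where a gene has several probes: over 999 such genes, 95% of probe differences lay within 0.30 log2 for Th22 against Th0, 0.39 for Th17 against Th0 and 0.36 for Th17 against Th22. The first pair of probes of each such gene was compared. Probes equal on all 3 arrays were not left out, so these limits may be too narrow for genes that differ. Each of the 7 genes had 1 probe, and the spread between cultures is unknown.

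Promoters were read to show what lies before genes that moved together. The RefSeq promoter table of GRCm38.p6 held 4 of the 7 genes, all on the plus strand. The 250 bases before each start are printed for Timp1 (chrX:20869916-20870165) and Crispld2 (chr8:119992188-119992437), which were both lowest in Th0, and for Pros1 (chr16:62854057-62854306) and Pglyrp1 (chr7:18884440-18884689), which were not. On both strands 8 motifs were searched. Capitals mark matches to 4 of them, named for the factors known to bind them, STAT, AP-1, ETS and GATA.
Timp1: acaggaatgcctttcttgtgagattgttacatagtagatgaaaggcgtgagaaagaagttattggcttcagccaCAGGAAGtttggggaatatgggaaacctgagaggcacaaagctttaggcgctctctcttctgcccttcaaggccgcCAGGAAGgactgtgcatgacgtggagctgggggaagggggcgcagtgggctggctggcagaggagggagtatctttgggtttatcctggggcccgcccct
Crispld2: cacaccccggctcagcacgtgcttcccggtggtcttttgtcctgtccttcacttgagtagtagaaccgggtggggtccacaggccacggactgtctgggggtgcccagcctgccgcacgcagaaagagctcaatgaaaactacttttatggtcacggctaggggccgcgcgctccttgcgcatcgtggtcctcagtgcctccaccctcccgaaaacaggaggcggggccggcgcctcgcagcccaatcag
Pros1: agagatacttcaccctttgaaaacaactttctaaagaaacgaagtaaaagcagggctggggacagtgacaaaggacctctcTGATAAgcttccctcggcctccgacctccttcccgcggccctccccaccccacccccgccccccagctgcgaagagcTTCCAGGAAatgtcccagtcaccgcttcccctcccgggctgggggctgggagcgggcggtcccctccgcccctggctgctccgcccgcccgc
Pglyrp1: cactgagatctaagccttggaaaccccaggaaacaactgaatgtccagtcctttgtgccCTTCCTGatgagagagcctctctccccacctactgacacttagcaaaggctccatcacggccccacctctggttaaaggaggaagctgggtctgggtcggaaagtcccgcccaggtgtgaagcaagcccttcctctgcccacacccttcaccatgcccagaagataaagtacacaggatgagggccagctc

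The Timp1 window held 2 matches to the ETS letters, CAGGAAG, and the Pglyrp1 window 1, against 10.8% of 32851 promoter windows of the same length with at least 1. The Pros1 window held 1 match to the STAT letters, TTCNNNGAA, found in 7.02% of all windows. It also held 1 match to the GATA letters, TGATAA, found in 7.94%. None of the 4 windows held the AP-1 letters, TGANTCA, found in 6.75% of all windows, and the Crispld2 window held none of these 4 motifs. The other 4 motifs are common promoter elements, not capitalised here. Timp1 and Crispld2 each held 1 match to CCAAT, which the other windows lacked and 33.8% of all windows held. The GC box, GGGCGG, matched once in Timp1 and in Pglyrp1 and 5 times in Pros1 (32.7% of all windows). The E-box, CANNTG, matched 2 times in Crispld2 and in Pglyrp1 and once in Pros1 (66.2%). None held the TATA letters, TATAAA (12.4%). The windows also differed in base composition, with 18 CpG dinucleotides in Crispld2, 15 in Pros1, 6 in Timp1 and 3 in Pglyrp1, against a median of 6. The motifs were chosen after the sequences had been seen, and a match describes letters only.

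Which culture was highest separated the genes into 3 sets. Timp1 and Crispld2 were highest in Th17, with Th22 close behind and Th0 far lower. Lum, Nrn1 and Pglyrp1 were highest in Th22. Penk and Pros1 were highest in Th0. Genes were counted at a difference of 2-fold or more. Against Th0, 3 of the 7 were higher in Th22 (0.547% of all genes were) and 2 were lower (0.261%). Against Th0, 2 were higher in Th17 (1.47% of all genes) and 4 were lower (1.56%). Between Th17 and Th22, 0 were higher in Th17 (1.1%) and 4 lower (1.5%). As the genes were picked on these values, nothing is read from the counts. Both comparisons with Th0 rest on the same Th0 array.

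**Figure D1:**
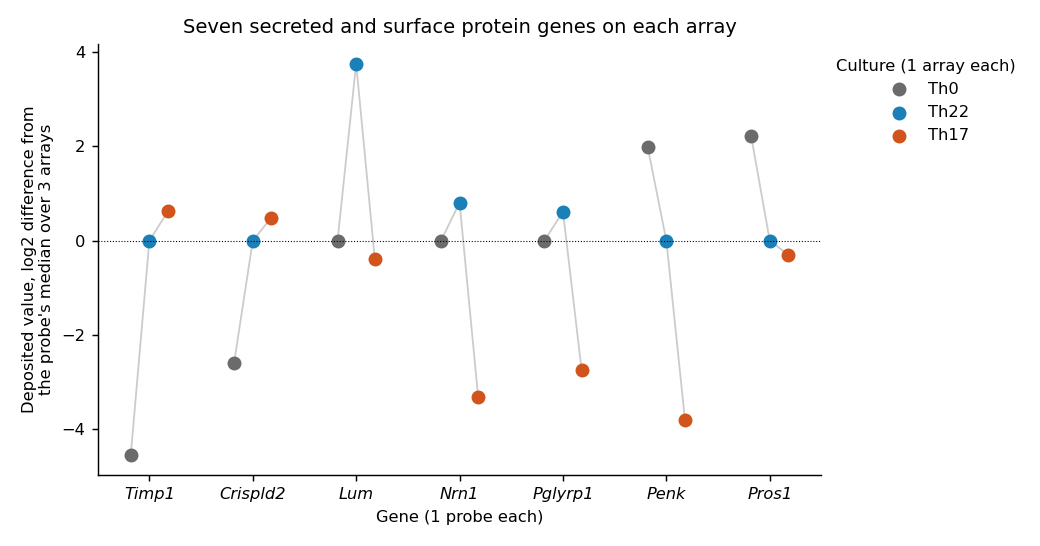
Deposited value of each of the 7 genes (log2 difference from the probe's median over the 3 arrays, y axis) in the Th0, Th22 and Th17 cultures, 1 point per array. Timp1 and Crispld2 sit lowest in Th0, Lum stands up in Th22 alone, Nrn1 and Pglyrp1 drop in Th17, Penk falls step by step, and Pros1 is highest in Th0.

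Timp1 was far higher in both cultures given IL-6 than in Th0. Its values were -4.55 in Th0, 0 in Th22 and 0.62 in Th17. Th0 was low and both other arrays were high. Timp1 was thus 23.4-fold higher in Th22 than in Th0 and 36.0-fold higher in Th17 than in Th0. After quantile normalization, which gives the centred values of the arrays the same distribution, these became 14.9-fold and 20.3-fold. The Th17 array lay 1.54-fold above the Th22 array, a gap of 0.62 log2 that exceeded the 95% limit of probe error (0.36). Of the difference between Th17 and Th0, 87.9% on the log2 scale was present in Th22. Ranked by the smaller of its gaps from Th0 to the other arrays, Timp1 was number 2 of 19938 genes. For this and the other genes followed here, the ranked gap was chosen to match the gene's own pattern. As they were also picked for large differences, nothing is read from such ranks.

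Crispld2 followed the same order at a smaller size. Its values were -2.59 in Th0, 0 in Th22 and 0.49 in Th17. Relative to Th0 it was 2.59 log2 higher in Th22 and 3.07 log2 (8.42-fold) higher in Th17, and 1.40-fold higher in Th17 than in Th22, with 84.1% of the log2 difference between Th17 and Th0 present in Th22. By the smaller gap from Th0 it was number 6 of all genes. In all, 43 genes (0.216%) were at least 2-fold lower in Th0 than in both other cultures, and 2 of the 7 were among them.

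The genes nearest to Timp1 and Crispld2 were found by the Euclidean distance between pairs of values, Th22 minus Th0 and Th17 minus Th0, over the 3 arrays. Nearest to Timp1 were Serpinb1a, which encodes a protease inhibitor, at a distance of 0.87 log2, then the cytokine gene Il17f (1.12), Ly6g (1.33), Il17a (2.01) and Emp1 (2.33). Timp1 and Il17f both rose steeply with IL-6 alone, Il17f by 29.0-fold in Th22, but Il17f lay a further 2.62-fold higher in Th17 and Timp1 1.54-fold. Nearest to Crispld2 were the leukotriene receptor gene Cysltr1 (0.70), Slc4a11 (0.85), the cytokine gene Il21 (0.97), Ctsw (1.10) and Igfbp4 (1.12), which encodes a secreted binder of insulin-like growth factors. Igfbp4 was 3.39-fold higher in Th22 and 4.97-fold higher in Th17 than in Th0. After quantile normalization it was no longer among the 5 genes nearest to Crispld2.

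The metalloprotease system was read beside Timp1. Of 35 measured genes other than Timp1, 1 passed 2-fold upward in Th22 against Th0 (0.547% of all genes did) and 0 downward (0.261%). In Th17 against Th0, 2 passed upward (1.47% of all genes) and 0 downward (1.56%). In Th17 against Th22, 2 passed upward (1.1%) and 1 downward (1.5%). The median was 0 in each comparison, as over all genes. Among the other inhibitors, Timp2 lay at 0.0043 log2 for Th22 minus Th0 and was 3.48-fold higher in Th17 than in Th0, Timp3 lay within 0.02 log2 of 0 in each comparison, and Timp4 was equal on all 3 arrays. Mmp9, the gelatinase whose proenzyme binds Timp1, was also equal on all 3 arrays. After quantile normalization Adam10, another membrane-bound protease gene, passed 2-fold downward in Th22 against Th0 (-1.16 log2, from -0.40). The largest difference was in Adam19, a membrane-bound protease gene, which was 2.36-fold higher in Th22 and 7.21-fold higher in Th17 than in Th0. Adam8 was 2.58-fold lower in Th17 than in Th22. Cd63, which encodes a surface partner of Timp1, lay at -0.46 log2 for Th17 minus Th22, its largest difference.

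Timp1 lies inside the span of Syn1 in the GRCm38.p6 annotation, and its nearest genes on chromosome X were read for comparison. Syn1, which encodes a synaptic vesicle protein, was 1.21-fold higher in Th22 and 3.13-fold higher in Th17 than in Th0. Elk1, a transcription factor gene 2 positions away, was 0.58 log2 and 1.20 log2 higher. Their differences from Th0 were smaller than those of Timp1 in both cultures. Between Th22 and Th17, however, Syn1 was 1.37 log2 higher in Th17 (0.91 after quantile normalization) and Elk1 0.62, beside 0.62 for Timp1. Because Timp1 and Syn1 overlap, the signal of Syn1 is given with the caution that strand was not stated. Among other genes responsive to IL-6 and STAT3, 1 of 18 passed 2-fold upward in Th22 against Th0 (Il21), beside 0.547% of all genes, and 6 in Th17, beside 1.47%. The feedback inhibitor gene Socs3 was 0.79 log2 higher in Th22 and 1.09 log2 in Th17, and Bcl3 0.79 and 0.73 log2. Their list medians were 0.04 and 0.06 log2, against 0 over all genes.

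**Figure D2:**
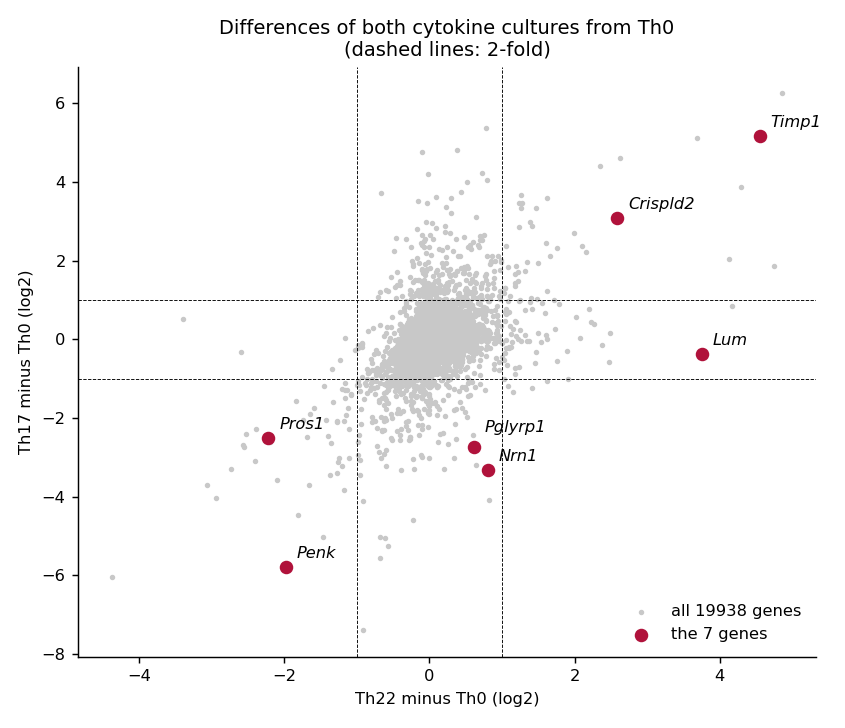
Difference from Th0 in Th22 (x axis, log2) and in Th17 (y axis, log2) for all 19938 genes (grey) and the 7 genes (red), with dashed lines at 2-fold. Timp1 and Crispld2 lie at the upper right, Lum at the right near a Th17 difference of -0.38, and Penk at the lower left.

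Lum was high in the Th22 culture alone. Its values were 0 in Th0, 3.76 in Th22 and -0.38 in Th17. Only the Th22 array was high, and the Th0 and Th17 arrays lay 0.38 log2 apart, inside the 95% limit of probe error (0.39). Lum was 13.5-fold higher in Th22 than in Th0 and 17.6-fold lower in Th17 than in Th22. After quantile normalization these became 19.6-fold and 23.2-fold. Across all genes, 48 (0.241%) exceeded both other cultures by 2-fold or more in Th22, and by the smaller gap Lum was number 1 of 19938. No other gene lay within 1 log2 of it in the plane of both differences. The nearest were Il1r2, the IL-1 decoy receptor gene (1.30), Iltifb (1.30), whose signal cannot be separated from its near-identical copy Il22, the cadherin gene Cdh17 (1.38), Moxd1 (1.40) and the chemokine receptor gene Cxcr2 (1.68).

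Dcn, the next measured gene on chromosome 10, encodes decorin, a relative of lumican, and was also highest in Th22. Dcn was 2.76-fold higher in Th22 than in Th0 and 3.48-fold lower in Th17 than in Th22. Its Th17 array lay 0.33 log2 below Th0, inside the 95% limit of probe error (0.39). The next genes on the other side of Lum, Kera and Epyc, which encode 2 more small leucine-rich proteoglycans, stayed within 0.01 log2. Of 15 measured genes of that family other than Lum, Dcn was the only one past 2-fold upward in Th22 against Th0 (0.547% of all genes). In that comparison 0 passed downward (0.261%), and the median was 0. Podnl1 was 0.95 log2 higher in Th22 than in Th0, and after quantile normalization it passed 2-fold as well (1.09 log2). Bgn, which encodes biglycan, and Fmod, fibromodulin, were among the 9 family genes equal on all 3 arrays.

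Because Lum and Dcn are also strongly expressed by fibroblasts, 10 measured fibroblast and stromal markers were set beside them. Dcn was itself on that list and was the 1 marker past 2-fold, which 3.7% of all genes passed in at least 1 comparison. The other 9, between -0.39 and 0.10 log2 in every comparison, included the collagen genes Col1a1, equal on all 3 arrays, Col1a2 (-0.08 log2 for Th22 minus Th0) and Col3a1 (0), and the receptor genes Pdgfra (0.07) and Pdgfrb (0). The summed level of these markers cannot be had from centred values, and 4 of them were equal on all 3 arrays. Whether stromal cells contributed to the Lum signal was not tested.

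**Figure D3:**
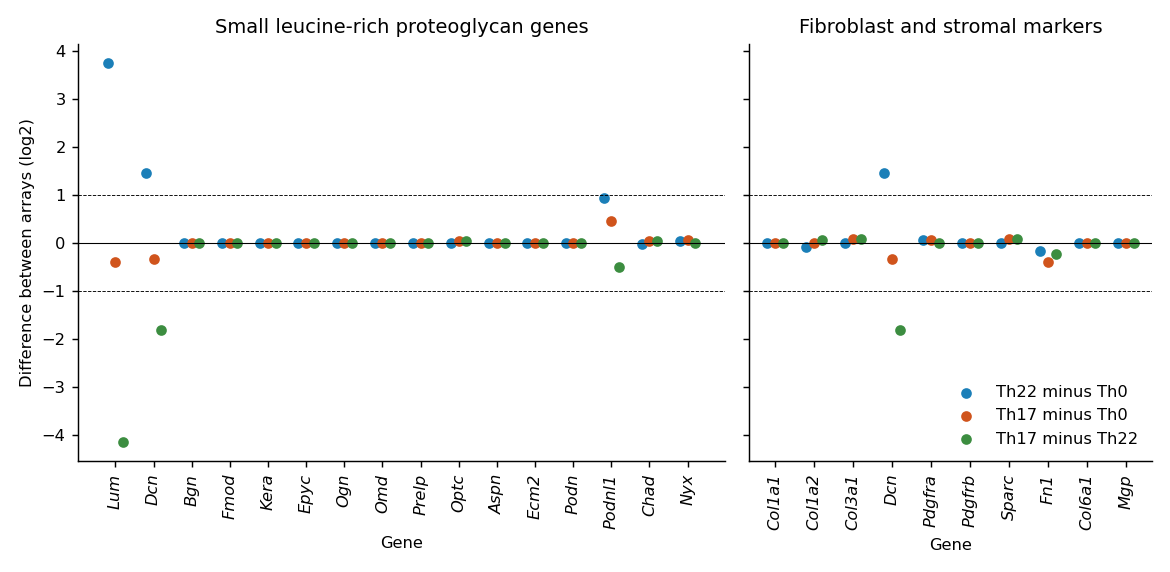
Differences between arrays (log2, y axis) for 16 measured small leucine-rich proteoglycan genes (left) and 10 fibroblast and stromal markers (right), 1 point per comparison, with dashed lines at 2-fold. Lum and Dcn stand out upward for Th22 minus Th0 (3.76 and 1.47) and downward for Th17 minus Th22, while the collagen genes stay near 0.

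Nrn1 was high in Th0 and Th22 and low in Th17. Its values were 0 in Th0, 0.81 in Th22 and -3.32 in Th17. In Th17 it lay 9.97-fold under Th0 and 17.4-fold under Th22, or 4.24-fold and 8.96-fold after quantile normalization. Th22 lay 1.75-fold above Th0, or 2.11-fold after quantile normalization. The gap of 0.81 log2 exceeded the 95% limit of probe error (0.30).

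Pglyrp1 had the pattern of Nrn1, at a distance of 0.61 log2 from it, the shortest between any pair of the 7. Its values were 0 in Th0, 0.62 in Th22 and -2.74 in Th17. Th17 was low, and the gap of 0.62 log2 between the other arrays exceeded the 95% limit of probe error (0.30). In Th17 it lay 6.66-fold under Th0 and 10.2-fold under Th22, or 3.10-fold and 5.47-fold after quantile normalization, and Th22 lay 1.53-fold above Th0. Across all genes, 206 (1.03%) lay 2-fold or more under both other cultures in Th17, and 3 of the 7 were among them: Nrn1, number 10 by the smaller gap, Pglyrp1, number 21, and Penk.

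Several genes lay close to this pair. Nearest to Nrn1 were Tnip3, which encodes a binding partner of the NF-κB inhibitor A20 (0.20 log2), Lilrb4a (0.56), Lilr4b (0.61), Pglyrp1 itself and the interferon-induced Ifitm3 (0.76). Nearest to Pglyrp1 were Ms4a6d (0.31), the surface receptor gene Slamf7 (0.33), Gimap7 (0.37), Lilrb4a (0.39) and Tnip3 (0.47). Lilrb4a and Lilr4b are close relatives, so their signals are uncertain as separate values. Within 1 log2 there were 30 genes around Pglyrp1 and 11 around Nrn1.

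No measured paralog of either gene passed 2-fold. Nrn1l, the paralog of Nrn1, differed by at most 0.05 log2 in any comparison. Of 16 measured neurotrophic factor and receptor genes other than Nrn1, 0 were higher in Th17 than in Th0 (1.47% of all genes) and 1 was lower (1.56%). This was the neurotrophin receptor gene Ntrk3 (2.45-fold), and the median of the 16 was 0. Among the peptidoglycan recognition genes Pglyrp4 was equal on all 3 arrays and Pglyrp3 lay within 0.02 log2. None of 11 measured genes other than Pglyrp1 passed 2-fold in any comparison. As 3.7% of all genes passed it in at least 1, nothing is read from that count. The sensor genes Nod1 and Nod2 and the receptor gene Trem1 were equal on all 3 arrays. Tnfrsf1a, which encodes a tumour necrosis factor receptor, was 1.37-fold higher in Th22 and 1.43-fold higher in Th17 than in Th0.

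Since Pglyrp1 is a granule protein of neutrophils, 12 neutrophil markers were set beside it. Of these, 8 were equal on all 3 arrays, including S100a8 and S100a9, which encode abundant neutrophil proteins. Ly6g was 19.5-fold higher in Th22 and 14.6-fold higher in Th17 than in Th0, and Cxcr2 4.83-fold and 1.31-fold. Like Pglyrp1, both were highest in Th22, but they were lowest in Th0 and Pglyrp1 was lowest in Th17. The other 10 lay between -0.15 and 0.01 log2 in every comparison. Over all genes, 3.7% passed 2-fold in at least 1 comparison and 37.7% were equal on all 3 arrays. As with the stromal markers, the summed level of the neutrophil markers cannot be had from centred values. Whether neutrophils contributed to the Pglyrp1 signal was not tested.

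Penk fell at each step from Th0 to Th22 to Th17. Its values were 1.98 in Th0, 0 in Th22 and -3.80 in Th17. All 3 arrays lay apart by more than the probe error. It fell 3.94-fold from Th0 to Th22, 14.0-fold from Th22 to Th17 and 55.0-fold from Th0 to Th17. After quantile normalization these became 4.84-fold, 5.30-fold and 25.7-fold. Of its whole log2 fall, 34.2% was present in Th22. Only 17 genes (0.0853%) fell at least 2-fold at both steps. By the smaller step Penk was number 1 of 19938, on a measure fitted to its own pattern. The nearest genes were Serpinb9, a granzyme B inhibitor gene (0.91 log2), the cytokine gene Il3 (1.31), the Th2 factor gene Gata3 (1.33), Serpinb6b and Akr1c18 (1.51). Of these, Serpinb9 and Gata3 also passed 2-fold at both steps, Serpinb9 with falls of 2.76-fold and 11.8-fold and Gata3 with falls of 3.50-fold and 6.27-fold.

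The other opioid precursors gave no such differences. Pdyn and Pomc, the prodynorphin and pro-opiomelanocortin genes, were equal on all 3 arrays, as were the receptor genes Oprd1, Oprk1 and Oprl1, and Oprm1 lay within 0.02 log2. Of 15 measured genes of the opioid system other than Penk, 1 passed 2-fold downward (1.56% of all genes) and 1 upward (1.47%) in Th17 against Th0. In Th22 against Th0, 0 passed, beside 0.547% upward and 0.261% downward over all genes. Those that passed encode proprotein convertases. Pcsk1, which cuts hormone precursors in secretory granules, lay 2.66-fold under Th0 and 3.93-fold under Th22 in Th17, and after quantile normalization the first of these was -0.87 log2, under 2-fold. Furin, the convertase of the general secretory route, was 3.08-fold higher in Th17 than in Th0. The peptidase genes Mme and Anpep, whose products degrade enkephalins, were equal on all 3 arrays.

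Penk and Nrn1 are both on the list of anergy and receptor feedback genes. Of 16 measured genes of that list other than these, 1 passed 2-fold upward in Th17 against Th0 (Nt5e), 2 downward (Nr4a2 and Nr4a3) and 13 were within 2-fold. Over all genes 1.47% passed upward and 1.56% downward in that comparison. After quantile normalization Nr4a2 lay at -0.87 log2 for Th17 minus Th0, under 2-fold, and Nr4a3 passed it for Th22 minus Th0 as well (-1.16 log2). The median was -0.20 log2 for Th17 against Th0 and -0.04 log2 for Th22 against Th0, beside 0 over all genes. The ectoenzyme gene Nt5e was 5.38 log2 higher in Th17 than in Th0, opposite to Penk and Nrn1.

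Pros1 was high in Th0 and low in both cultures given IL-6. Its values were 2.22 in Th0, 0 in Th22 and -0.30 in Th17. The Th22 and Th17 arrays lay 0.30 log2 apart, inside the 95% limit of probe error (0.36), so no order between them is read. Relative to Th0 it was 4.65-fold lower in Th22 and 5.71-fold lower in Th17, with 88.2% of the log2 difference between Th17 and Th0 present in Th22. In all, 46 genes (0.231%) were at least 2-fold higher in Th0 than in both other cultures, including Pros1 and Penk, and Pros1 was number 10 by the smaller gap. The nearest gene was the Th2 cytokine gene Il4, at a distance of 0.10 log2, followed by Gm4951 (0.29), the activation marker gene Cd83 (0.33), the hypoxia factor gene Epas1 (0.39) and Csf2, the GM-CSF gene (0.40). The fall from Th0 to Th17 was 6.13-fold in Il4 and 6.66-fold in Csf2.

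In its system F2r, a thrombin receptor gene, was low in Th22, at -0.98 log2 relative to Th0, just inside 2-fold, and -2.29 log2 after quantile normalization. In Th17 it lay at -0.21 log2, unlike Pros1. Gas6, which encodes the related TAM ligand, and the receptor gene Mertk were equal on all 3 arrays, and Tyro3 differed by at most 0.23 log2. Axl was 1.36-fold higher in Th22 and 2.00-fold higher in Th17 than in Th0, the latter at the threshold and 0.89 log2, under 2-fold, after quantile normalization. Procr, which encodes the endothelial protein C receptor, was 10.3-fold higher in Th17 than in Th0 and 1.18-fold higher in Th22, opposite in direction to Pros1. Of 16 measured genes of the protein S, TAM and protein C system other than Pros1, 2 were higher in Th17 than in Th0 (1.47% of all genes) and 0 lower (1.56%). In Th22 against Th0, 0 passed 2-fold, beside 0.547% upward and 0.261% downward over all genes. After quantile normalization these became 1 higher and 0 lower in Th17, and 1 lower in Th22, which was F2r. The 6 measured megakaryocyte and platelet markers, set here because platelets carry both protein S and Timp1, were equal on all 3 arrays. So were 37.7% of all genes, and equality of this kind may hide an undetected gene. Whether platelets contributed to the Pros1 or Timp1 signal was not tested.

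Crispld2 was the only measured gene of the CAP superfamily past 2-fold upward in any comparison, and 8 of the 13 were equal on all 3 arrays. Of all genes, 0.547% passed upward in Th22 against Th0, 1.47% in Th17 against Th0 and 1.1% in Th17 against Th22. Little is therefore read from this. Crispld1, the closest paralog of Crispld2, differed by at most 0.03 log2. Of 12 measured genes other than Crispld2, 0 were higher in Th17 than in Th0 (1.47% of all genes) and 1 was lower (1.56%). This was Glipr1, which relative to Th0 was 1.95-fold lower in Th22 (-1.27 log2 after quantile normalization, past 2-fold) and 8.37-fold lower in Th17. The pair thus ran in opposite directions from Th0, with Crispld2 8.42-fold higher in Th17.

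The chromosomal neighbours of the 7 were read for all of them. The 3 nearest measured protein-coding genes on either side of each gave 42 neighbours, of which 39 lay within 2-fold in all 3 comparisons. The 3 exceptions were Dcn beside Lum, and Syn1 and Elk1 beside Timp1. Over all genes 3.7% passed 2-fold in at least 1 comparison, so most genes at any place lay within it and nothing is read from the count. Around Penk the largest difference was in Chchd7, at -0.38 log2 for Th17 minus Th0, and around Nrn1 in Ppp1r3g, at -0.39 log2 for Th17 minus Th22. Around Pros1 and Pglyrp1 no neighbour differed by more than 0.08 log2.

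**Figure D4:**
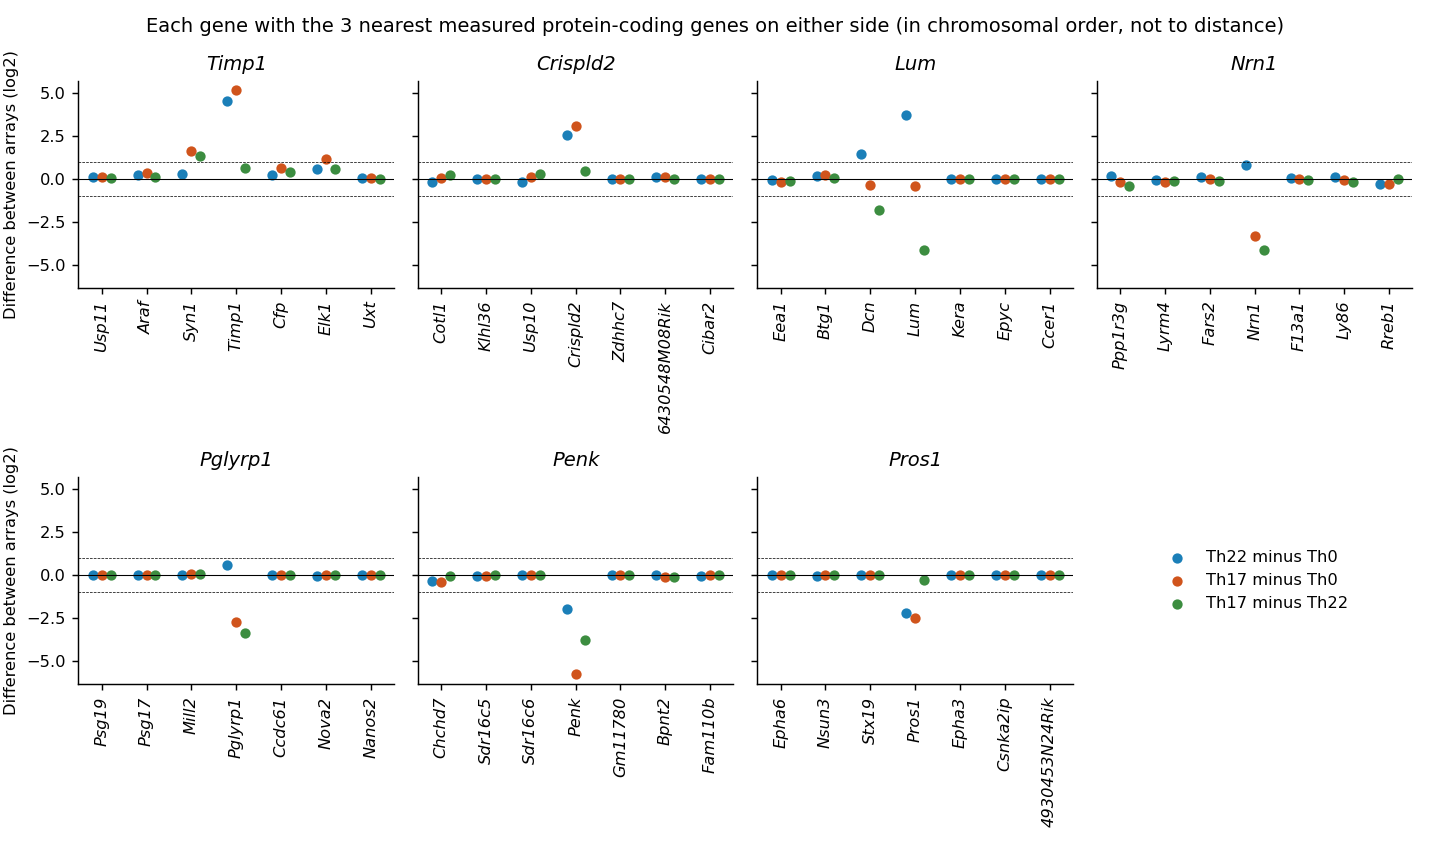
Differences between arrays (log2, y axis) for each of the 7 genes and its 3 nearest measured protein-coding neighbours on either side, in chromosomal order (x axis, not to distance), with dashed lines at 2-fold. Outside Lum with Dcn and Timp1 with Syn1 and Elk1, the neighbours lie within 2-fold, as most genes do.

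Genes responsive to TGFβ gave a reference for the step from Th22 to Th17. Of 18 measured, 6 passed 2-fold upward (1.1% of all genes did) and 2 downward (1.5%), with a median of 0.52 log2 against 0 over all genes. After quantile normalization 5 passed upward and 2 downward at this step, as Smad7 fell to 0.79 log2. At this step Lum, Penk, Nrn1 and Pglyrp1 were between 10.2-fold and 17.6-fold lower, while Timp1, Crispld2 and Pros1 differed by 1.54-fold at most. At the step from Th0 to Th22 the size order differed, with Timp1, Lum and Crispld2 higher, Penk and Pros1 lower, and Nrn1 and Pglyrp1 within 2-fold (Nrn1 2.11-fold after quantile normalization).

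**Figure D5:**
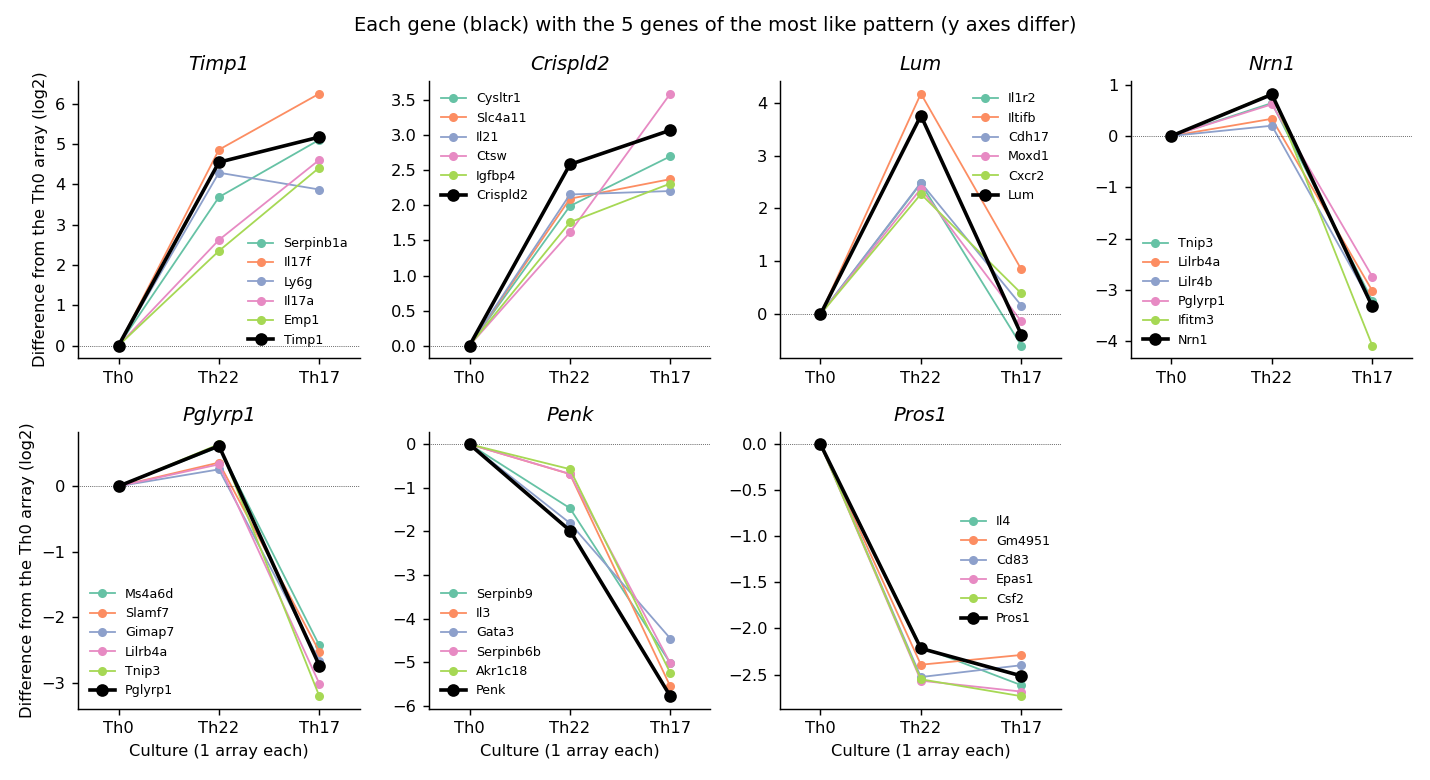
Difference from the Th0 array (log2, y axis; scales differ between panels) in the 3 cultures for each of the 7 genes (black) and the 5 genes of the most like pattern (colours). The lines of Pros1 and its neighbours Il4 and Csf2 nearly coincide, while those around Lum reach lower peaks except for Iltifb.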

How the data were processed

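Total RNA of 3 samples, 1 array each, was grouped by the T-helper subset in the labels. Arrays were biotin-labelled, per the labels' protocols. The authors deposited values taken to be log2, as differences from each probe's median over the arrays. That median was exactly 0 for all 28853 probes, and all 3 column medians were 0. Not given in the sources used here are log base, background correction and software. Higher values were read as more RNA.

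Of the probes, 21789 had 1 symbol in the platform annotation and 21698 of these were updated by Entrez identifier with the GRCm38.p6 gene table. Another 1621 had several symbols and 5443 were not listed. Probes of a gene were averaged. The array's build is not named, so the table gave names and gene order only, and coordinates belong to the RefSeq promoters. Folds are 2 to the power of a difference.

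The genes, lists and motifs were chosen with earlier results of these data known. Named genes were the 7, list genes past 2-fold or close partners, and the 5 nearest genes; the 3 flanking genes on each side were added later. No test was run, each group having 1 array. The 2-fold calls and the quantile normalization were tested on simulated data without probes equal on all arrays. The other steps were not tested in this way. Python 3.11.15 and pandas 2.3.3 were used. Alternatives were quantile normalization, other centring, probe handling, thresholds of 1.5-fold and 4-fold, and natural logs.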

Additional observations from a re-analysis of the deposited data

Results flagged for a closer look

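In 3 of the 7 genes Th22 and Th17 differed from Th0 in opposite directions, each on 1 array and against the same Th0 array, and the difference was not tested. Lum was -4.14 log2 in Th17 relative to Th22, but its Th17 array lay only 0.38 log2 below Th0, inside the 95% limit of probe error. Nrn1 was -4.12 log2 and Pglyrp1 -3.35 log2 in Th17 relative to Th22, with both arrays beyond that limit from Th0.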

How the results depend on the processing

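Another centring and both changes of probe handling could not change the 21 differences of the 7 genes and say nothing about their stability. The median of the probes that differ was 0 on all 3 arrays, so centring on it shifted nothing, and each of the 7 had 1 probe and gained none from the probes with several symbols, so the same probe was used throughout. Leaving out genes equal on all 3 arrays likewise could not change a count past 2-fold. Quantile normalization acted on values centred on 0 and could not change the order of the arrays in genes of 1 probe. It kept all 15 differences of the 7 genes that were past 2-fold, and moved 17 of the 21 by more than 1 SD. Relative to Th0, Timp1 became 3.89 log2 in Th22 and 4.35 in Th17, and Crispld2 2.41 and 2.77. Lum became 4.29 in Th22 relative to Th0 and -4.54 in Th17 relative to Th22. In the order Th22 and then Th17 relative to Th0, and Th17 relative to Th22, Penk became -2.28, -4.68 and -2.41, Nrn1 1.08, -2.08 and -3.16, and Pglyrp1 0.82, -1.63 and -2.45. Pros1 became -2.52 and -2.71 against Th0. Of the 5 genes nearest to Penk, 3 were among its nearest 5 after quantile normalization. Nrn1, Crispld2 and Pglyrp1 each kept 4 of 5, losing Lilr4b, Igfbp4 and Gimap7 in that order. Timp1, Lum and Pros1 kept all 5.

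Over all genes, those at least 2-fold lower in Th22 than in Th0 rose from 52 to 158 with quantile normalization. With natural logs, tried after seeing the data, the genes past 2-fold numbered 233 higher and 110 lower in Th22 and 490 and 531 in Th17, each relative to Th0, and 340 and 519 in Th17 relative to Th22, and every fold would be larger. Among the 172 genes of the 10 pathway lists other than the 7, a threshold of 1.5-fold gave 16 higher and 3 lower in Th22 than in Th0 (4 and 0 at 2-fold), 8 lower for Th17 against Th0 (5) and 11 lower for Th17 against Th22 (6). A threshold of 4-fold gave 1 higher in Th22 than in Th0. It gave 8 higher (19 at 2-fold) and 1 lower for Th17 against Th0, and 6 higher (14) and 1 lower for Th17 against Th22. Quantile normalization gave 7 lower in Th22 than in Th0 and 3 lower in Th17 than in Th0. Natural logs gave 13 higher and 3 lower in Th22 than in Th0 and 10 lower in Th17 than in Th22. No paired analysis was possible because each group had 1 array. Signal over background is unknown, so a fold from an array near background may understate the difference.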
